A study of Mus musculus with 6 samples.

Results

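Interleukin-1 alpha and beta (Il1a, Il1b), their antagonist Il1rn and receptors Il1r1, Il1r2 and Il1rap, interleukin-18 (Il18) with its binding protein Il18bp, and the inflammasome genes Nlrp3 and Casp1 were examined in tumor-associated macrophages (TAMs), the macrophages found within a tumor. These 10 genes were chosen by name from the 22377 genes in the count table, and all 10 were abundant enough to be tested. RNA was sequenced in 6 libraries, with total counts from 36550775 to 38147320. Of these, 3 carry the label wt and the other 3 carry the labels ko and knockdown. The groups of the study were Npm1+/+ mice and Npm1+/- mice, heterozygous for Npm1, the gene of the nucleolar protein nucleophosmin. Male and female mice, 6 to 8 weeks old, received LLC cells under the skin, and CD45+ CD11b+ F4/80+ cells were sorted from the tumors. LLC is the Lewis lung carcinoma line of the mouse. All 6 libraries thus come from animals bearing the same tumor, and no library from animals without a tumor is included. The Npm1+/- genotype is not limited to macrophages, so other cells of these hosts carry it too. The labels give no genotype, name TRIzol extraction of tumor tissue and a small RNA library, and do not say which libraries came from which animals. A legend for part of these data gives 2 individual mice, fewer than the 3 libraries a group, so libraries of a group may share a mouse. These descriptions were not reconciled here, and p-values measure the spread between these libraries, which may be technical.

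Npm1 was not lower in the libraries labelled ko. It stood at 142, 380.2 and 381 CPM in wt replicates 1, 2 and 3 and at 441, 499 and 343 CPM in labelled ko replicates 1, 2 and 3, where CPM are counts scaled to a common library size by the TMM method. Its log2 fold change was 0.51 (adjusted p = 0.436, edgeR), and 0.16 without wt replicate 1 (adjusted p = 0.684). Directions below are therefore those between the libraries as labelled. The 13 macrophage markers were all present, with a summed level of 21898 to 27337 CPM in wt and 13247 to 22355 CPM in labelled ko. Wt replicate 1 stood apart from the other libraries. It scored -108.5 on the first principal component, which held 67.99% of the variance, whereas the other 5 libraries scored between -4.535 and 52.03. The log2 fold change of each of the 10 genes is given with and without it.

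IL-1 alpha and IL-1 beta bind the same signaling receptor, formed by IL1R1 and the accessory chain IL1RAP, and activate NF-kB through MYD88. IL1RN occupies IL1R1 without signaling, and IL1R2 is a decoy that binds IL-1 but lacks the signaling domain. IL-1 beta and IL-18 are made as inactive precursors. Caspase-1, activated in inflammasomes such as that of NLRP3, cuts both, and IL18BP holds secreted IL-18 away from its receptor. Activated macrophages and monocytes are a main source of IL-1 beta. The messenger RNA measured here does not show how much of either precursor was cut or released.

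The family was led by Il1b. Compared per length, its level was 3075, 5533 and 4526 FPKM in wt replicates 1, 2 and 3 and 3820, 2396 and 5191 FPKM in labelled ko replicates 1, 2 and 3, where FPKM are counts scaled by gene length and by library total. Il1b thus ranked between 5 and 12 among the 22377 genes of each library, and it took 0.452% to 1.04% of all counts, against 0.678% to 1.37% for the 10 genes together. Below it lay a group of similar levels, with Il1a at 109 to 424 FPKM, Il1rn at 161 to 330, Nlrp3 at 149 to 253 and Il1r2 at 105 to 193. Casp1 followed at 34.1 to 45.1 FPKM and Il18 at 6.97 to 10.7. Il1rap at 4.67 to 6.21 FPKM, Il1r1 at 1.38 to 6.25 and Il18bp at 0.945 to 1.46 were lowest. The decoy receptor Il1r2 was hence far above the signaling receptor Il1r1 in every library.

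**Figure D1:**
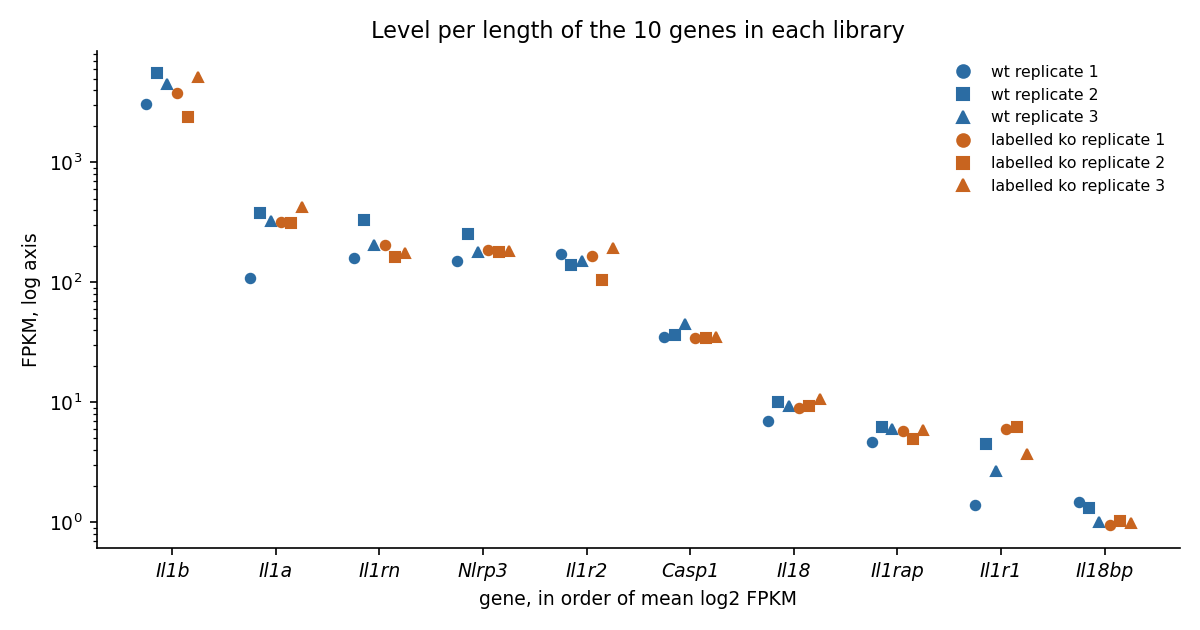
Level per length (FPKM, log axis) of each of the 10 genes in each of the 6 libraries, in order of the mean. Il1b lies between 2396 and 5533 FPKM, above the other 9 genes in every library, and Il18bp is at the bottom with at most 1.46 FPKM.

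Adjacent genes in this order were compared within libraries. Il1b exceeded Il1a by 3.77 ± 0.61 on the log2 scale (SD, n = 6), and it was higher in 6 of 6 libraries. Il1r2 exceeded Casp1 by 2.06 ± 0.35, Casp1 exceeded Il18 by 2.00 ± 0.24 and Il18 exceeded Il1rap by 0.71 ± 0.13, each in 6 of 6 libraries. Each of these 4 differences had a two-sided p = 0.0312 in an exact sign-flip permutation test, the smallest that 6 libraries can give, and an adjusted p of 0.0703 over the 9 adjacent pairs. With 9 pairs, at least 6 would have to reach this smallest p for any to pass the adjusted threshold of 0.05. The differences between Il1a and Il1rn (0.53 ± 0.64), Il1rn and Nlrp3 (0.10 ± 0.18), Nlrp3 and Il1r2 (0.29 ± 0.43) and Il1rap and Il1r1 (0.62 ± 0.77) were no larger than about their spread, and their direction turned in at least 1 library. Il1r1 exceeded Il18bp by 1.71 ± 1.01 in 5 of 6 libraries. The gene length matters for this order. The authors' length for Il1rap is 13345 bp, against 4438 bp for the annotated transcript with the longest coding sequence, and for Il18 the lengths are 2593 and 860 bp. With the annotated lengths, an alternative added after seeing the data, Il1r2 moved up to the place after Il1a, and 6 of the 9 adjacent pairs passed with an adjusted p of 0.0469 by the same exact permutation test. Casp1 then exceeded Il18 by only 0.43 ± 0.24, whereas Il1rap exceeded Il1r1 by 2.13 ± 0.77 and Il1rn exceeded Nlrp3 by 0.58 ± 0.18, each in 6 of 6 libraries.

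Il1a and Il1b are neighbors on chromosome 2 of GRCm38, both on the minus strand, Il1a (NCBI Gene 16175) from 129299610 to 129309972 and Il1b (16176) from 129364570 to 129371139, with 54598 bp between them. The 250 bases before the start of each gene are shown because these are the 2 agonists of the same receptor and hold the TATA letters that few promoters have. Il1rap is shown beside them because it followed Il1b most closely of the other 9 genes across libraries. The sequences are from RefSeq, build GRCm38.p6, in the direction of transcription, and capitals mark the motif letters found.
Il1b, chr2:129371140-129371389, minus strand: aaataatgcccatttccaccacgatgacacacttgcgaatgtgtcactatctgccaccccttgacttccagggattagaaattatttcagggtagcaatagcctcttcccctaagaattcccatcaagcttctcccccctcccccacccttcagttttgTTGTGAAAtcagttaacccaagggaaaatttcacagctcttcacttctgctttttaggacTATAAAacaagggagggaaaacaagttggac
Il1a, chr2:129309973-129310222, minus strand: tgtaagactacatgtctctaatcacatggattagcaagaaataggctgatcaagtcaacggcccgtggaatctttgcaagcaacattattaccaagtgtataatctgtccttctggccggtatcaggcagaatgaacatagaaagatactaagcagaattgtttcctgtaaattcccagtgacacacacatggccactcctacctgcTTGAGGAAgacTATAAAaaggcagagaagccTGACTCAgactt
Il1rap, chr16:26581455-26581704, plus strand: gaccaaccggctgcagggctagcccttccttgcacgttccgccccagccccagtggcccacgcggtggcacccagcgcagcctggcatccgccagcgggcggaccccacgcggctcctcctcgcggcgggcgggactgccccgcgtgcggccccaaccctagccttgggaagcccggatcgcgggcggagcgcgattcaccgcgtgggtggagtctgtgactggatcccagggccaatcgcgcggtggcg

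Of 6 motifs searched in this window, TATAAA on the gene's strand was found in Il1b from -31 to -26 and in Il1a from -32 to -27 relative to the start, and in none of the other 8 genes. It is present in 7.59% of 32851 mouse promoter windows of the same length. The C/EBP letters TTNCNNAA, searched on both strands and present in 36.8% of windows, were found in Il1b from -91 to -84 and in Il1a from -43 to -36, where they overlap the PU.1 letters GAGGAA at -41 to -36. They were also found in Il1rn, Il1r1, Il18bp and Nlrp3. PU.1 letters are in 23.3% of windows on either strand, and Casp1 and Nlrp3 hold them as well. AP-1 letters TGANTCA, in 6.75% of windows on either strand, were found in Il1a from -12 to -6 and in Il1rn. STAT letters TTCNNNGAA, in 7.02% of windows on either strand, were found in Il1r2 from -111 to -103, and the kappaB motif, in 3.9% of windows on either strand, in a second start of Il1r1 and of Nlrp3. The Il1rap window held none of the 6 and had a GC content of 74.4%, against 44.4% for Il1b, 42.4% for Il1a and a median of 52.4% over all windows. All 10 genes matched the promoter table, with 14 starts between them. These matches describe letters only.

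The groups were then compared to ask which of these transcripts differed with the label. None of the 10 genes passed an adjusted p of 0.05 in edgeR's quasi-likelihood test, and 0 of the 13884 genes tested did (0%). At an unadjusted p under 0.05 there were 0 of the 10 genes, against 2112 of all genes tested (15.2%). Casp1 was closest, with an unadjusted p of 0.0505 in this test. This count depends on the fit. In DESeq2 1 of the 10, Casp1, was under 0.05, against 18.5% of all genes. In limma on log2 of FPKM plus 1 it was Il1r1, against 20%. DESeq2 on the same counts also called 0 of the 10, against 108 of all genes (0.778%), but it gave no adjusted p for 5115 of the 13884 genes, Il18bp among them. The estimate was lower in the libraries labelled ko for 8 of the 10 and higher for 2, with a median log2 fold change of -0.20, against 0.02 over all genes tested. This median was -0.04 without labelled ko replicate 2 and -0.35 without labelled ko replicate 3. Every library labelled ko was below every wt library in 2 of the 10 genes, Il18bp and Casp1, a pattern shown by 12.6% of all genes tested, and above in 0 of the 10, against 13.3% of all genes. In bulk RNA, fewer cells of a type and less RNA per cell cannot be told apart.

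Il1b, the main secreted agonist, stood at 6227, 11197 and 8692 CPM in wt replicates 1, 2 and 3 and at 6868, 3946 and 10116 CPM in labelled ko replicates 1, 2 and 3. The groups overlapped, and labelled ko replicate 2 was lowest of the 6. The means were 8705 ± 2485 CPM in wt and 6977 ± 3086 CPM in labelled ko (SD, n = 3 each), with a log2 fold change of -0.32 (SE 0.37, adjusted p = 0.615, edgeR's quasi-likelihood test, corrected by Benjamini-Hochberg across the 13884 genes, as for each adjusted p below unless another test is named). The estimate depended on single libraries, moving to -0.04 without labelled ko replicate 2 and to -0.69 without labelled ko replicate 3. It was -0.51 without wt replicate 1.

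Il1a, the agonist that is active without cleavage, stood at 230.2 CPM in wt replicate 1, against 809 and 650.5 CPM in the other wt libraries and 597, 535 and 865 CPM in labelled ko replicates 1, 2 and 3. Apart from wt replicate 1, the wt values lay within the range of the labelled ko values. The log2 fold change was 0.24 (SE 0.42, adjusted p = 0.750), and without wt replicate 1 its sign turned, to -0.13 (adjusted p = 0.803).

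Of the 5 ratios computed, that of the 2 agonists to each other was the only one in which the groups did not overlap, whereas they overlapped in either level. Such separation was not counted over other pairs of genes. Among single genes tested, 25.9% had groups that did not overlap. The ratio of Il1a to Il1b in FPKM was 0.0354, 0.0691 and 0.0716 in wt replicates 1, 2 and 3 and 0.0832, 0.130 and 0.0817 in labelled ko replicates 1, 2 and 3. Such a ratio does not depend on scaling between libraries. On the log2 scale the means were -4.16 ± 0.57 in wt and -3.38 ± 0.38 in labelled ko, a difference of 0.78 (exact two-sided permutation test over 6 libraries, p = 0.1, which is the smallest value possible with 3 against 3, adjusted p = 0.333 over the 5 ratios computed). It did not pass the threshold, which this design cannot reach. Without wt replicate 1 the difference was 0.45.

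Il1rn, the receptor antagonist (NCBI Gene 16181, chromosome 2 from 24336853 to 24351494, plus strand), stood at 485, 991 and 584 CPM in wt replicates 1, 2 and 3 and at 544, 399 and 504 CPM in labelled ko replicates 1, 2 and 3. Wt replicate 2 was far above the others, and wt replicate 1 lay within the range of the labelled ko libraries. The means were 687 ± 268 and 482 ± 75.1 CPM (SD, n = 3 each), with a log2 fold change of -0.51 (SE 0.27, adjusted p = 0.356). Without wt replicate 1 it was -0.71 (adjusted p = 0.406), and without wt replicate 2 it was -0.15. The balance of Il1b to its antagonist in FPKM was 19.1, 16.8 and 22.1 in wt and 18.8, 14.7 and 29.8 in labelled ko. Its log2 difference was 0.07 (exact permutation test, p = 0.9, adjusted p = 0.9).

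Il1r1, the signaling receptor (NCBI Gene 16177, chromosome 1 from 40225080 to 40317257, plus strand), had the highest estimate of the 10 genes. It stood at 9.11, 29.3 and 16.6 CPM in wt replicates 1, 2 and 3 and at 34.9, 33.5 and 23.4 CPM in labelled ko replicates 1, 2 and 3. The groups overlapped, since wt replicate 2 exceeded labelled ko replicate 3. The means were 18.4 ± 10.2 and 30.6 ± 6.25 CPM (SD, n = 3 each), with a log2 fold change of 0.74 (SE 0.39, 95% interval -0.18 to 1.65, adjusted p = 0.356). Without wt replicate 1 it was 0.41 (adjusted p = 0.508), and without wt replicate 2 it was 1.25. The summed markers of fibroblasts, which express IL1R1, moved with it. The 8 fibroblast markers summed to 32.4, 490.1 and 304 CPM in wt replicates 1, 2 and 3 and to 713, 614 and 367 CPM in labelled ko replicates 1, 2 and 3, and none of the 8 was at 0 in all libraries. All 8 had higher estimates, but most of each sum was Col3a1. It stood at 19.0, 426 and 245 CPM in wt and at 604, 474 and 308 CPM in labelled ko. Col1a1 reached at most 5.52 CPM, and Thy1 was highest in labelled ko replicate 2 at 69.7 CPM. The 6 libraries fell in the same order for Il1r1, for the fibroblast sum and for the sum of 5 epithelial or carcinoma markers, which was 35.2 to 137 CPM in wt and 129 to 191 CPM in labelled ko. Of the 3 of these 5 that were tested, 2 had higher estimates and 1 a lower estimate. Krt8 was the largest of them except in wt replicate 1, from 9.90 CPM there to 171 CPM in labelled ko replicate 1. Cdh1 went the other way, from 24.3 CPM in wt replicate 1 to 9.43 CPM in labelled ko replicate 2. The study describes a sort for CD45+ CD11b+ F4/80+ cells, whereas the labels name tumor tissue. The part of fibroblasts and of epithelial or carcinoma cells in the level of Il1r1 was not tested.

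Il1r2, the decoy receptor (NCBI Gene 16178, chromosome 1 from 40074079 to 40125231, plus strand), lies 99849 bp from Il1r1. It stood at 496, 405 and 408 CPM in wt replicates 1, 2 and 3 and at 426, 245 and 533 CPM in labelled ko replicates 1, 2 and 3. The values of the labelled ko libraries spanned those of wt. The log2 fold change was -0.12 (SE 0.27, adjusted p = 0.803), and it was -0.02 without wt replicate 1 and 0.13 without labelled ko replicate 2. The ratio of Il1r1 to Il1r2 in FPKM was 0.00801, 0.0316 and 0.0178 in wt and 0.0358, 0.0596 and 0.0192 in labelled ko, so that the decoy was far more abundant in each library. The log2 difference of this ratio was 1.06 (exact permutation test, p = 0.2, adjusted p = 0.333), and without wt replicate 1 it was 0.54.

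Il1rap, the chain shared by the receptors of IL-1 and IL-33 (NCBI Gene 16180, chromosome 16 from 26581704 to 26730117, plus strand), varied little, from 57.4 CPM in labelled ko replicate 2 to 88.8 CPM in wt replicate 2. The means were 79.2 ± 11.2 and 70.9 ± 12.4 CPM in wt and labelled ko (SD, n = 3 each), with a log2 fold change of -0.16 (SE 0.17, adjusted p = 0.592) and of -0.27 without wt replicate 1. It was -0.07 without wt replicate 2 and -0.04 without labelled ko replicate 2.

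Il18 (NCBI Gene 16173, chromosome 9 from 50554827 to 50581840, plus strand) stood at 19.4, 27.8 and 24.6 CPM in wt replicates 1, 2 and 3 and at 22.2, 20.9 and 28.5 CPM in labelled ko replicates 1, 2 and 3. The groups covered nearly the same range, with means of 23.9 ± 4.24 and 23.9 ± 4.09 CPM. Its log2 fold change was -0.0025 (SE 0.19, adjusted p = 0.995), and the 95% interval ran from -0.45 to 0.45. The estimate was -0.14 without wt replicate 1 (adjusted p = 0.733).

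Il18bp, the soluble inhibitor of IL-18 (NCBI Gene 16068, chromosome 7 from 102014885 to 102018690, minus strand), was the least abundant of the 10. It stood at 7.23, 6.54 and 4.68 CPM in wt replicates 1, 2 and 3 and at 4.15, 4.11 and 4.65 CPM in labelled ko replicates 1, 2 and 3. The gap between the groups was thus a few hundredths of a CPM, and wt replicate 3 had 175 counts against 170 in labelled ko replicate 3. The log2 fold change was -0.52 (SE 0.25, adjusted p = 0.336) and -0.39 without wt replicate 1. In the deposited FPKM, which are not scaled further, wt replicate 3 at 0.998 was below labelled ko replicate 2 at 1.02, and the groups overlapped. The ratio of Il18 to Il18bp in FPKM was 4.77, 7.55 and 9.33 in wt and 9.51, 9.04 and 10.9 in labelled ko, with a log2 difference of 0.49 (exact permutation test, p = 0.2, adjusted p = 0.333) and of 0.22 without wt replicate 1.

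Nlrp3, the sensor of the inflammasome (NCBI Gene 216799, chromosome 11 from 59541568 to 59566956, plus strand), stood at 653, 1107 and 746 CPM in wt replicates 1, 2 and 3 and at 717, 632 and 767 CPM in labelled ko replicates 1, 2 and 3. Only wt replicate 2 lay outside the range of the others by a wide margin. The means were 835 ± 240 and 705 ± 68.7 CPM (SD, n = 3 each), with a log2 fold change of -0.24 (SE 0.21, adjusted p = 0.509). Without wt replicate 2 it was 0.0075, and without wt replicate 1 it was -0.40.

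Casp1, the protease that cuts both precursors (NCBI Gene 12362, chromosome 9 from 5298517 to 5307265, plus strand), was the gene with the smallest p of the 10. It stood at 56.9, 58.8 and 69.5 CPM in wt replicates 1, 2 and 3 and at 49.1, 45.6 and 54.8 CPM in labelled ko replicates 1, 2 and 3, and the groups did not overlap. The means were 61.7 ± 6.77 and 49.9 ± 4.66 CPM (SD, n = 3 each), with a log2 fold change of -0.31 (SE 0.13, adjusted p = 0.328), and DESeq2 gave -0.32 with an adjusted p of 0.199. In the deposited FPKM, labelled ko replicate 3 at 35.12 was above wt replicate 1 at 35.07, so that this separation, too, depends on scaling between libraries. Without wt replicate 1 the log2 fold change was -0.37 (adjusted p = 0.406). The ratio of Nlrp3 to Casp1 in FPKM was 4.26, 6.98 and 3.99 in wt and 5.42, 5.14 and 5.19 in labelled ko, with a log2 difference of 0.096 (exact permutation test, p = 0.8, adjusted p = 0.9) and of -0.0072 without wt replicate 1.

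**Figure D2:**
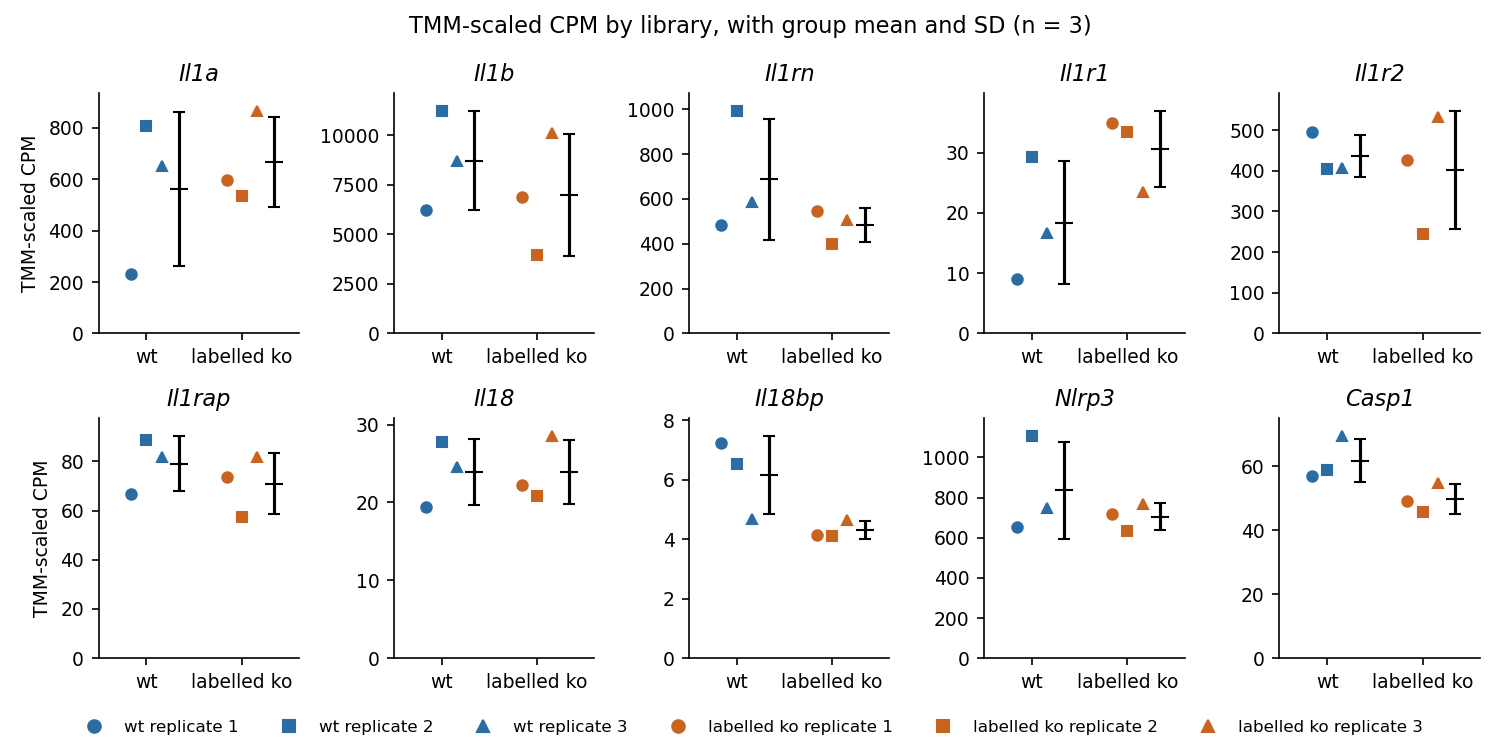
TMM-scaled CPM (vertical axes, each from 0) of the 10 genes in the 6 libraries, with points for libraries and bars for the mean and SD of each group (n = 3). Il18bp and Casp1 are the 2 genes whose groups do not overlap, and wt replicate 1 is lowest for Il1a at 230.2 CPM and for Il1r1 at 9.11 CPM.

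**Figure D3:**
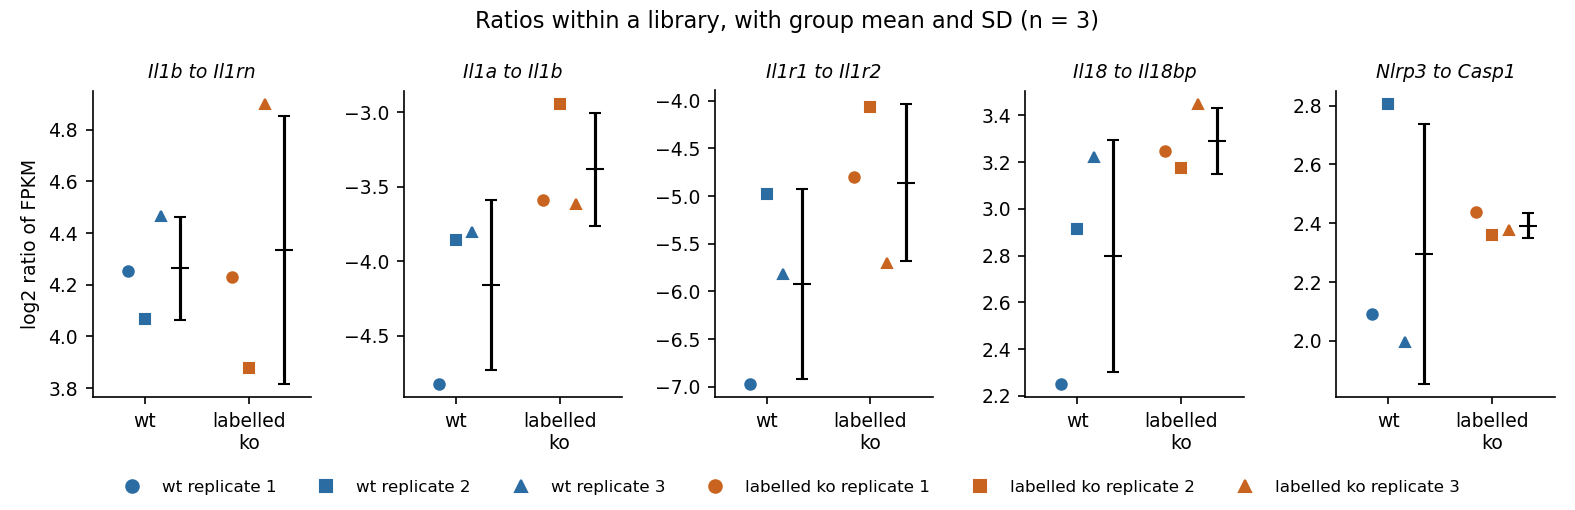
Log2 ratio of FPKM within each library for 5 pairs of genes (vertical axes differ), with points for libraries and bars for the mean and SD of each group (n = 3). The groups are apart in the ratio of Il1a to Il1b, with means of -4.16 and -3.38, and overlap in the other 4.

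Without wt replicate 1, 2 of the 10 genes, Casp1 and Il1rn, had an unadjusted p under 0.05, against 12.2% of the genes tested in that fit. Every library labelled ko was then below both remaining wt libraries in 4 of the 10 genes, Il1rn, Il1rap, Il18bp and Casp1, against 14.9% of all genes, and with 3 libraries against 2 this pattern is easier to reach. None of the 10 passed the adjusted threshold. Over 16 alternative fits, in scaling, filter, test or libraries, the estimate of Il1r1 ranged from 0.38 to 1.30 and that of Il1rn from -0.73 to -0.0052, the last with scaling to the macrophage markers (adjusted p = 0.989).

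**Figure D4:**
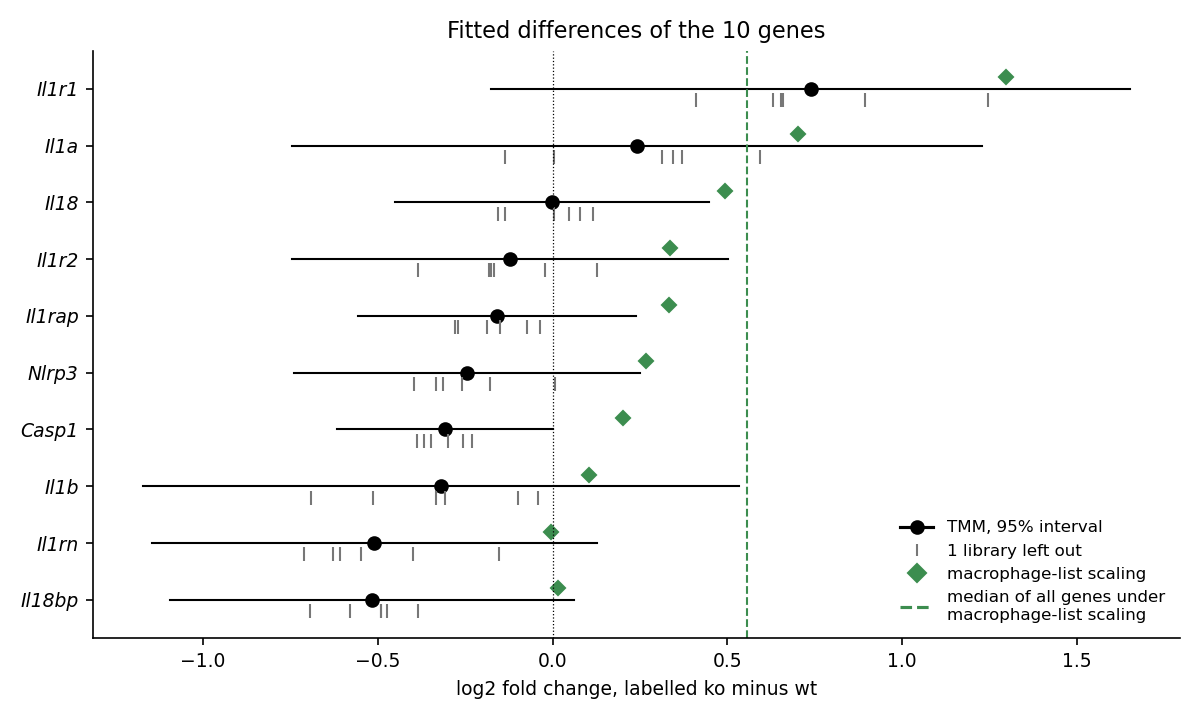
Fitted log2 fold change of the 10 genes, labelled ko minus wt (horizontal axis), with its 95% interval, the 6 values with 1 library left out (ticks) and the value after scaling to the macrophage markers (diamonds). Each interval includes 0, and 8 of the 10 diamonds lie below 0.56, the median of all genes under that scaling.

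The 10 genes were set beside markers of macrophages and of other cells. All 13 macrophage markers had lower estimates in the libraries labelled ko, as had the 5 monocyte markers (3239 to 4882 CPM in wt, 1645 to 3035 CPM in labelled ko) and the 12 tested of 13 neutrophil markers (2006 to 2246 CPM in wt, 904 to 1746 CPM in labelled ko). Single neutrophil markers differed widely in level over the 6 libraries. S100a9 stood at 356 to 970 CPM, Csf3r at 160 to 527, Mmp8 at 106 to 199 and Cxcr2 at 14.2 to 58.9. Ly6g stood at 0.573 to 2.11 CPM, and Camp, Mpo and Elane were at 1.74 CPM or less. The 7 T and NK cell markers all had higher estimates (33.9 to 89.3 CPM in wt, 73.7 to 207 CPM in labelled ko). Of the 7 dendritic cell markers 2 were higher and 5 lower (214 to 367 CPM in wt, 239 to 339 CPM in labelled ko), the mast cell markers summed to at most 12.3 CPM and the endothelial markers to at most 36.5 CPM. None of these markers passed the adjusted threshold, and no list had a marker at 0 in all 6 libraries. Labelled ko replicate 2 was lowest in the macrophage, monocyte and neutrophil sums. It was also lowest in 7 of the 10 genes (Il1b, Il1rn, Il1r2, Il1rap, Il18bp, Nlrp3 and Casp1), whereas it is lowest in 26.9% of all genes tested. The part of these cell types in the levels of the 10 genes was not tested. When libraries were scaled to the macrophage markers instead, 9 of the 10 estimates were above 0 (median 0.30), while the median of all genes moved to 0.56 and 8 of the 10 genes stayed below that median. Of the 8 lower estimates, 7 changed sign under this scaling, and that of Il1rn moved to -0.0052.

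**Figure D5:**
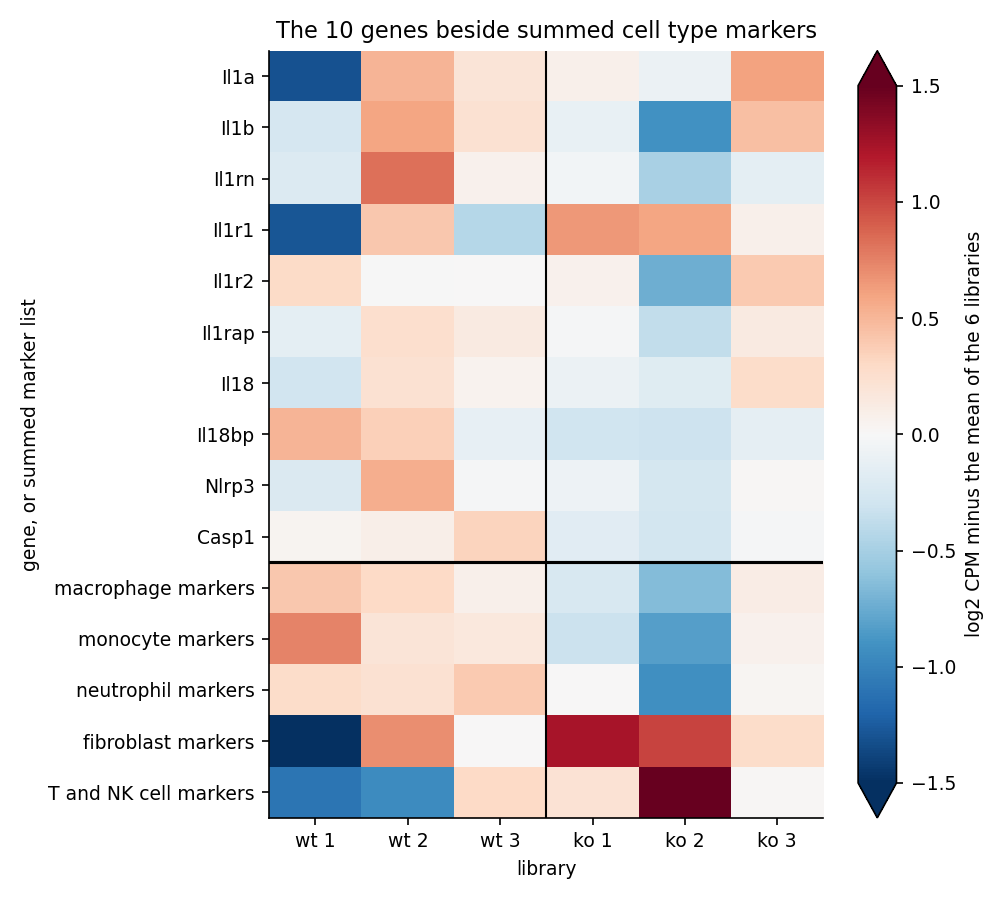
Log2 CPM of the 10 genes and of 5 summed marker lists (rows) in the 6 libraries (columns, where ko stands for labelled ko), as the difference from the mean of the 6 libraries (color). Labelled ko replicate 2 is lowest in 7 of the 10 genes and in the macrophage, monocyte and neutrophil lists, and wt replicate 1 is lowest in Il1a, Il1r1, Il18 and the fibroblast list.

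The libraries fell in the same order, from labelled ko replicate 2 at the bottom to wt replicate 2 at the top, for Il1b and Nlrp3, and in another shared order, from wt replicate 1 to labelled ko replicate 3, for Il1a and Il18. In likeness to Il1b, measured as Pearson's r of log2 CPM over the 6 libraries and given as a description, Il1rap came first of the other 9 genes (r = 0.985) and Il1r1 last (r = -0.054). These were 0.989 and -0.471 without wt replicate 1, and the r of Il1a moved from 0.537 to 0.892. Outside the 10 genes, the 5 most like Il1b were Capza1 (r = 0.991), Birc3 (r = 0.991), Chmp5 (r = 0.990), Nfkbia (r = 0.986) and Gnaq (r = 0.983). Birc3 and Nfkbia are known NF-kB targets. Capza1 encodes a subunit of the actin capping protein and Gnaq a G protein subunit.

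Further genes of the pathway were described as lists. Of 62 genes, 59 are in the table and 56 were tested, and 0 of them passed the adjusted threshold in edgeR, 12 had an unadjusted p under 0.05 (15.2% of all genes did) and 2 were called by DESeq2 (0.778% of all genes were). Estimates were higher for 21 and lower for 35. Every library labelled ko was above every wt library in 4 and below in 9, against 13.3% and 12.6% of all genes. Nothing particular to the lists is read from these counts.

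Receptors of the family outside the 10 genes had higher estimates in all 5 tested (median log2 fold change 0.77), and in 3 of them the groups did not overlap, where 13.3% of all genes are higher in this way. The 5 estimates were also higher without wt replicate 1, with a median of 0.57. Il18rap, the accessory chain of the IL-18 receptor, stood at 37.7, 53.7 and 66.7 CPM in wt and at 93.9, 93.2 and 82.6 CPM in labelled ko, with a log2 fold change of 0.77 (adjusted p = 0.328). Il1rl1, the receptor of IL-33, stood at 3.94, 7.75 and 6.18 CPM in wt and at 13.7, 14.5 and 8.15 CPM in labelled ko, with a log2 fold change of 1.03 (adjusted p = 0.328). Il18rap is a gene of T and NK cells as well as of myeloid cells, and the 7 T and NK cell markers also had higher estimates, with a part in the level of Il18rap that was not tested. Of the 3 ligands tested outside the 10 genes, 2 had higher and 1 a lower estimate. The 2 higher ones were at 1.07 CPM or less in every library. The lower one stood at 40.0 to 64.9 CPM, with a log2 fold change of -0.05 (adjusted p = 0.902).

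Inflammasome sensors, adaptors and effectors other than Nlrp3 and Casp1 had lower estimates in 17 of 20 tested (median -0.33). The groups did not overlap in 6 of them, all lower, where 12.6% of all genes are lower in this way. These 6 differed widely in level, from a gene at 0.219 to 0.675 CPM to a gene at 346 to 559 CPM. Leaving out wt replicate 1 gave 16 lower estimates of 20 and a median of -0.25. Naip2, a sensor that works with NLRC4, stood at 121, 109 and 103 CPM in wt and at 74.9, 60.3 and 81.3 CPM in labelled ko, with a log2 fold change of -0.62 (adjusted p = 0.328 in edgeR, 0.0321 in DESeq2). It belongs to a family of similar genes among which reads could be divided, so its value is uncertain. P2rx7, the ATP-gated channel upstream of NLRP3, stood at 31.4, 20.2 and 27.9 CPM in wt and at 16.6, 16.4 and 19.3 CPM in labelled ko, with a log2 fold change of -0.60 (adjusted p = 0.328). After scaling to the macrophage markers only 5 of the 20 estimates were below 0, and 18 were below the median of all genes.

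Among 14 signal transducers of the IL-1 receptor, 11 had lower estimates (median -0.11), and the groups did not overlap in 3, all lower, against 12.6% of all genes. Leaving out wt replicate 1 gave 13 lower estimates and a median of -0.065. Irak4, the first kinase recruited by MYD88, stood at 44.8, 27.1 and 28.7 CPM in wt and at 19.5, 16.8 and 25.7 CPM in labelled ko, with a log2 fold change of -0.70 (adjusted p = 0.328) and of -0.44 without wt replicate 1 (adjusted p = 0.408). With upper quartile scaling 8 of the 14 were lower, and after scaling to the macrophage markers 2 were. The 14 genes induced by NF-kB were divided, with 8 higher and 6 lower estimates and a median of 0.02. Tnf, the inflammatory cytokine, stood at 393.4, 541 and 393.1 CPM in wt and at 705, 711 and 770.0 CPM in labelled ko, with a log2 fold change of 0.72 (adjusted p = 0.328 in edgeR, 0.0209 in DESeq2). It was thus higher in each library labelled ko, whereas the groups overlapped for Il1b. Without wt replicate 1, 12 of the 14 NF-kB induced genes had lower estimates, against 6 with it.

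Several of the 10 genes overlap other annotated genes. Il1a, Il1b, Il1r2, Il1rap, Il18 and Il18bp have a gene on the opposite strand within their bounds, such as Il1bos at Il1b, Bco2 and Tex12 at Il18 and Numa1 at Il18bp. Whether the counting used strand is not given in the sources used here, so reads of such partners cannot be told apart.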

How the data were processed

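The files deposited by the authors hold raw counts for each gene and FPKM. The deposited FPKM are those counts over a fixed gene length and the library total, with no other scaling. The processing notes name mm10 as the build. The aligner, counter and annotation are not given in the sources used here. All measured columns were mapped to a library. The 10 genes, the pathway lists and the marker lists were chosen with earlier results of these data known.

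Counts were fitted with edgeR 4.0.16 in R 4.3.3 (filterByExpr, TMM, glmQLFit and glmQLFTest) over all 6 libraries with no covariate. The test was adjusted by Benjamini-Hochberg over the 13884 genes tested. Standard errors were computed as |log2 fold change| over the root of F, and log2 CPM used a prior count of 2. A gene at 0 could still have had up to 3 counts, or 0.0716 to 0.0846 CPM, by counting error alone. Ratios and the order of levels used FPKM with exact permutation tests. Alternatives were other scalings and filters, DESeq2 1.42.0, limma 3.58.1 on log2 of FPKM plus 1 or plus 0.1, the replicate number as a block and each library left out. The edgeR and DESeq2 fits were tested on simulated data. Pathway genes were named as the 3 with the smallest p in each direction. Libraries within a group differed by a chi-square of 34.3 to 146 per gene, so none was a duplicate. Coordinates are those of GRCm38 in GENCODE, and promoters are those of RefSeq.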

Additional observations from a re-analysis of the deposited data

How the results depend on the processing

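No alternative called any of the 10 genes. DESeq2 called 108 genes in all and 75 without wt replicate 1, against 0 in edgeR. Under scaling to the macrophage markers the median of the 10 genes was 0.30 on the log2 scale, and Il18 (0.49), Il1b (0.10), Il1r2 (0.33), Il1rap (0.33), Il18bp (0.015), Nlrp3 (0.27) and Casp1 (0.20) changed sign. The median of all genes was then 0.56. The log2 fold change of Il18, near 0, also changed sign with upper quartile scaling (0.027), at least 10 counts in every library (0.022), limma on log2 of FPKM plus 1 (0.13) or plus 0.1 (0.15, where the median of all genes was 0.16) and the replicate block (0.00052). Il1a changed sign in DESeq2 without wt replicate 1 (-0.15). With upper quartile scaling 1 of the 10 genes had groups that did not overlap, against 25.5% of all genes. Under scaling to the macrophage markers 3 of the 10 (Il1a, Il1rap and Il18) were higher without overlap and 0 were lower, against 37.4% and 0.699% of all genes. With annotated lengths 6 adjacent pairs reached the smallest p that the sign-flip test can give, and so passed the adjusted threshold. The cause of the other changes was not tested.

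With 1 library left out, the log2 fold change ranged from -0.13 to 0.59 for Il1a, from -0.16 to 0.12 for Il18, from -0.38 to 0.13 for Il1r2 and from -0.40 to 0.0075 for Nlrp3, the log2 ratio of Il1b to Il1rn from -0.21 to 0.30 and that of Nlrp3 to Casp1 from -0.055 to 0.35. Of the genes examined here, 2 to 4 had groups without overlap, the most without wt replicate 1. Over all genes tested, this share ranged from 29.6% without labelled ko replicate 1 to 49.7% without labelled ko replicate 3. It was 31.5% without wt replicate 1. Nothing particular to the genes examined is read from these counts.

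Libraries of the same replicate number were not treated as pairs, since no label says that they are. The correlations of their deviations from the group means were -0.241, 0.0605 and -0.337 for replicates 1, 2 and 3. With 3 libraries a group these cannot settle whether the libraries are paired. With the replicate block 0 genes were called, 1606 had an unadjusted p under 0.05 and the median of the 10 genes was -0.20. With 3 libraries a group the exact tests of ratios cannot go below p = 0.1. Depth limits Il18bp most, which had 163 to 257 counts a library.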
